A study of Rattus norvegicus with 19 samples.

Results

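Ears2, which encodes the mitochondrial glutamyl-tRNA synthetase, was examined in rat retina together with 8 other nuclear genes of mitochondrial aminoacyl-tRNA synthetases (Iars2, Nars2, Sars2, Fars2, Rars2, Tars2, Yars2 and Hars2). The 9 genes were sought by their symbols in the probe annotation, and 1 probe was used for each gene that had one. Ears2 was chosen because its signal was lower in diabetic than in control retinas on these same arrays, so its values in the comparisons with diabetic rats are given as a description, without a test. The other genes were chosen by their family. A probe was named for 8 of the 9 genes, and 7 of the 9 were tested, among 7345 genes tested in all. No probe carried the symbol Iars2, the isoleucyl enzyme. The probe of Fars2, the phenylalanyl enzyme, was detected on 0 of 19 arrays.

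Whole retinas were taken from male Sprague-Dawley rats 3 months after induction of diabetes, and the RNA of each rat was hybridised to 1 Illumina RatRef-12 array. There were 7 non-diabetic controls (Control), which were injected with the citrate vehicle alone. Another 5 rats were made diabetic by a single injection of 65 mg/kg streptozotocin, a toxin of pancreatic beta cells (STZ). A further 7 diabetic rats, injected with streptozotocin in the same way, received 26 mg insulin pellets from week 6 (STZ + insulin). The control and untreated diabetic rats received no insulin. Diabetes of this kind is a model of insulin deficiency, and the retinas were dissected whole, with pigment epithelium and without the lens, so that fewer cells of a type and less RNA per cell cannot be told apart.

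Aminoacyl-tRNA synthetases join each amino acid to its transfer RNA. Mitochondria translate a small set of respiratory chain proteins on their own ribosomes, and the synthetases for this work are encoded in the nucleus, made in the cytosol and imported. In human mitochondria glutaminyl-tRNA is made by an indirect route, in which the EARS2 protein first loads glutamate on the glutamine tRNA and a complex of 3 subunits, GatA (encoded by Qrsl1), GatB (Gatb) and GatC (Gatc), then converts the glutamate to glutamine. The retina is rich in mitochondria, above all in the inner segments of photoreceptors.

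The deposited signals were background-subtracted and scaled to the same mean on every array. Signals under 10 were set to 10 and taken to the log2 scale. A probe was tested if all arrays of 1 or more groups had a detection p, the authors' measure against negative control beads, under 0.05. Groups were compared with limma, a linear model of the 3 groups fitted to each of the 10718 tested probes, with each probe's variance moderated by those of all probes, and a difference was called at a Benjamini-Hochberg adjusted p under 0.05. By this rule 2.79% of the tested probes (299, of which 95 were higher) differed between STZ and Control, 10.4% (1117, of which 696 were higher) between STZ + insulin and STZ, and 0.00933% (1) between STZ + insulin and Control. With quantile normalization 160 of 283 calls were higher in STZ, and with neqc 178 of 316, so that the balance of directions rested on the scaling. Non-normalized mean signals ran from 307 to 475 per array and 11239 to 11824 probes were detected. The arrays lay on 2 BeadChips (glass slides), each with arrays of all 3 groups. The median of all tested probes was -0.07 on the log2 scale in STZ versus Control and 0.06 in STZ + insulin versus STZ. Markers of rods and cones (12 of 14 genes tested) were high on every array, with a mean log2 signal of 11.22 to 11.61.

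Ears2 signal was lower in diabetic retinas and lay within the control range in insulin-treated diabetic retinas. In the 7 controls the normalized signal was 47.1, 49.99, 40.9, 40.0, 37.6, 34.8 and 32.1. In the 5 diabetic rats it was 18.3, 14.1, 12.6, 27.5 and 17.1. In the 7 insulin-treated diabetic rats it was 42.4, 40.3, 41.8, 34.3, 37.9, 46.6 and 45.9. Every diabetic value lay below every control value and below every insulin-treated value, while the control and insulin-treated values covered much the same range. The highest diabetic value, 27.5 on STZ replicate 4, was nearest to the other groups.

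**Figure D1:**
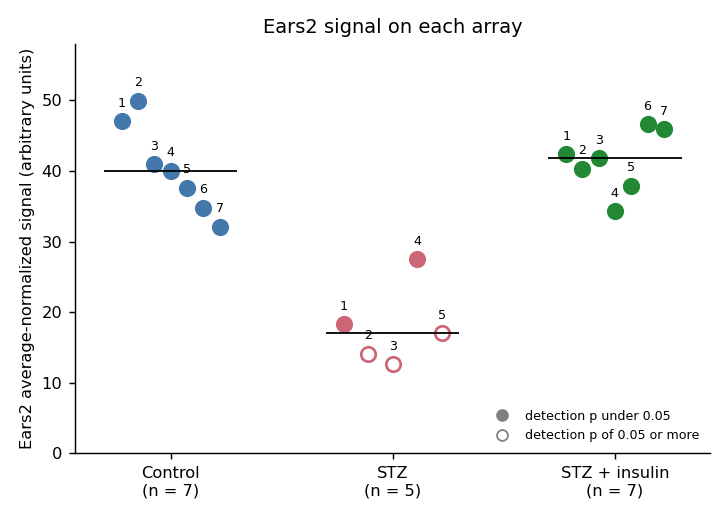
Ears2 average-normalized signal (vertical axis, arbitrary units) on each of the 19 arrays, by group, with the replicate number above each point and the group median as a line. Filled points were detected, open points were not: the 5 STZ arrays sit between 12.6 and 27.5 and the 14 other arrays at 32.1 or above.

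The mean log2 signal of Ears2 was 5.32 ± 0.23 (SD, n = 7) in Control, 4.11 ± 0.43 (n = 5) in STZ and 5.36 ± 0.16 (n = 7) in STZ + insulin. The fitted difference was -1.21 (standard error 0.15) for STZ versus Control, a 2.31-fold lower signal, and 1.25 (standard error 0.15) for STZ + insulin versus STZ. Both comparisons share the same 5 diabetic arrays. Groups without overlap in the direction of Ears2 were found for 2.2% of tested probes in STZ versus Control and for 2.21% in STZ + insulin versus STZ. STZ + insulin and Control differed by 0.04 on the log2 scale (standard error 0.14). This too is a description, because the control arrays entered the choice of Ears2.

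Ears2 was a dim probe, and its diabetic values were close to background. Only 8.86% of the tested probes had a lower mean signal. The probe was detected on 7 of 7 control arrays, 7 of 7 insulin-treated arrays and 2 of 5 diabetic arrays, where its detection p ran from 0.012 to 0.10, so that it entered the tested set through the other groups. The size of the STZ versus Control difference varied with the processing. It was -0.59 with neqc and -0.36 with non-normalized signals centred on the median of each array. It was 0 with signals under 50 set to 50, which removes all Ears2 values. The non-normalized signals of the diabetic arrays (62.8 to 81.4) lay below those of the controls (96.1 to 102) and overlapped those of the insulin-treated rats (74.5 to 119). Within BeadChip 1 and BeadChip 2 the STZ versus Control difference was -1.08 and -1.28, and that of STZ + insulin versus STZ was 0.87 and 1.55. RefSeq also lists a gene Ears2l1, formerly Ears2-ps1, and the probe sequence was not used here, so that signal from that copy and from Ears2 cannot be told apart.

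Among the 6 other tested members, 0 passed the test in STZ versus Control and 1, Yars2, was higher in STZ + insulin than in STZ. Among all tested probes 1.9% were called lower in STZ and 6.49% higher with insulin. At an unadjusted p under 0.05, 2 of the 6 were lower in STZ (beside 15.5% of tested probes) and 3 of the 6 were higher with insulin (beside 17.7%). At the same threshold 1 of the 6, Hars2, was lower with insulin (-0.35). The median log2 fold change of these 6 genes was -0.09 in STZ versus Control, beside -0.07 for all tested probes, and 0.18 in STZ + insulin versus STZ, beside 0.06.

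Yars2, the mitochondrial tyrosyl-tRNA synthetase, had the largest differences after Ears2 among the tested members in both comparisons with STZ. Its normalized signal was 262 to 325 (median 266) in Control. It was 210, 141, 265, 211 and 221 in the 5 diabetic rats and 219 to 437 (median 301) in STZ + insulin. STZ replicate 3 reached the control range and the other 4 diabetic arrays lay below it, and 2 insulin-treated arrays, replicates 1 and 4, lay within the diabetic range. The difference was 0.59 on the log2 scale for STZ + insulin versus STZ (standard error 0.15, adjusted p = 0.022) and -0.45 for STZ versus Control (standard error 0.15, adjusted p = 0.098). The call was lost without STZ replicate 2, whose signal was the lowest (0.45, adjusted p = 0.065). It was also lost with the replicate number as a block (0.49, adjusted p = 0.052) and with the level of lens genes as a covariate (0.56, adjusted p = 0.29).

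**Figure D2:**
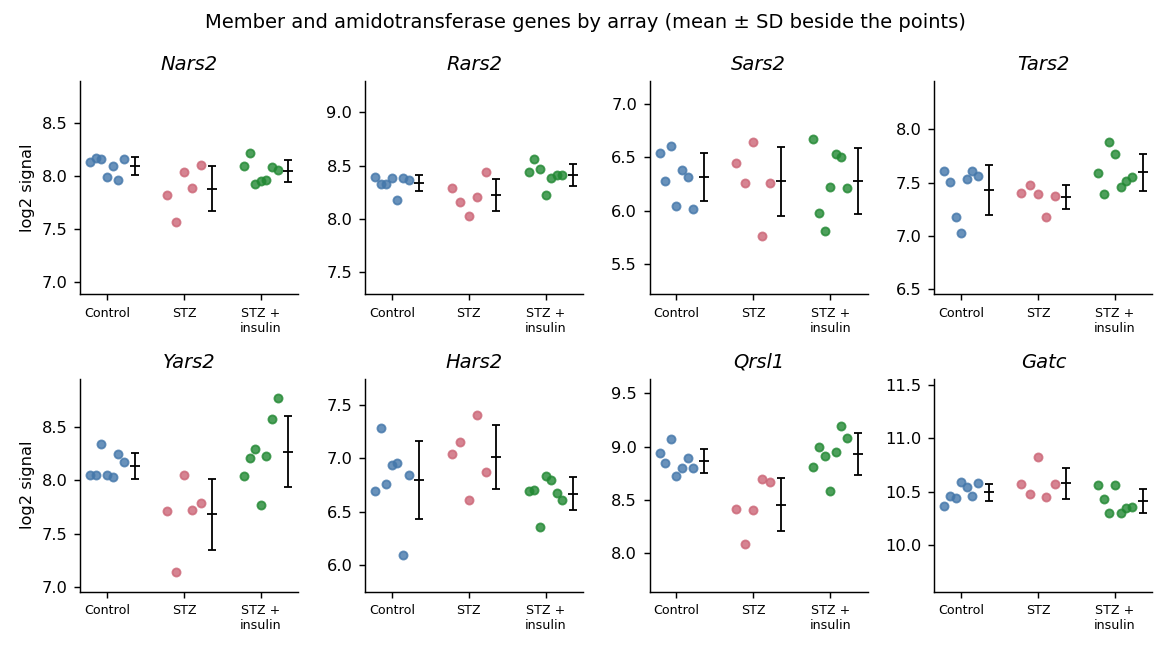
Log2 signal (vertical axis) of the 6 other tested members and of the amidotransferase genes Qrsl1 and Gatc on each array, by group, with the mean and SD beside the points; each panel spans 2 log2 units. Yars2 and Qrsl1 had lower group means in STZ (7.68 and 8.45) than in Control (8.14 and 8.87), whereas Sars2 had means of 6.31, 6.27 and 6.28.

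Nars2 and Rars2, the asparaginyl and arginyl enzymes, were moderately bright and varied little. Nars2 log2 signal was 7.96 to 8.17 in Control, 7.57 to 8.10 in STZ and 7.93 to 8.21 in STZ + insulin. Its difference was -0.21 in STZ versus Control (standard error 0.08, adjusted p = 0.15) and 0.16 with insulin (adjusted p = 0.22). Rars2 log2 signal was 8.18 to 8.40 in Control, 8.03 to 8.44 in STZ and 8.23 to 8.56 in STZ + insulin, and its differences were -0.11 (adjusted p = 0.39) and 0.19 (adjusted p = 0.097). For both genes the 3 groups overlapped.

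Tars2, Sars2 and Hars2, the threonyl, seryl and histidyl enzymes, gave differences with other signs or sizes. Tars2 log2 signal was 7.02 to 7.61 in Control, 7.17 to 7.48 in STZ and 7.39 to 7.89 in STZ + insulin, with differences of -0.07 (adjusted p = 0.76) and 0.23 (adjusted p = 0.18). Sars2 log2 signal was 6.01 to 6.61, 5.76 to 6.64 and 5.81 to 6.67, and its differences were -0.04 (95% interval -0.37 to 0.30) and 0.00 (95% interval -0.33 to 0.34). Hars2 was the only tested member with a positive difference in STZ versus Control, 0.22 (adjusted p = 0.44), though Sars2 was also above 0 with quantile normalization and neqc (0.020 and 0.019), and a negative one with insulin, -0.35 (adjusted p = 0.16). Its log2 signal was 6.09 to 7.29 in Control, 6.61 to 7.41 in STZ and 6.36 to 6.83 in STZ + insulin. In STZ + insulin versus Control the differences of the 6 genes ran from -0.13 to 0.16 and 0 passed the test (0 also at an unadjusted p under 0.05, beside 8.98% of tested probes).

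Of 8 further mitochondrial synthetase genes 4 had a named probe and 3 were tested. Vars2, the valyl enzyme, had a difference of 0.28 in STZ versus Control (standard error 0.08, adjusted p = 0.071). Its log2 signal was 6.75 to 7.24 in Control, 7.09 to 7.38 in STZ and 6.96 to 7.21 in STZ + insulin. Lars2, the leucyl enzyme, also had 0.28 (standard error 0.14, adjusted p = 0.27), and Aars2, the alanyl enzyme, had -0.19 (adjusted p = 0.43). The probes of these last 2 genes were about as dim as that of Ears2, with 9.49% and 11.6% of tested probes below them, and both were detected on all 19 arrays. The probe of Pars2, the prolyl enzyme, was detected on 0 of 19 arrays. None of the 3 tested genes passed the test in STZ + insulin versus STZ, where their differences were -0.11, -0.19 and 0.12 in the order given.

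**Figure D3:**
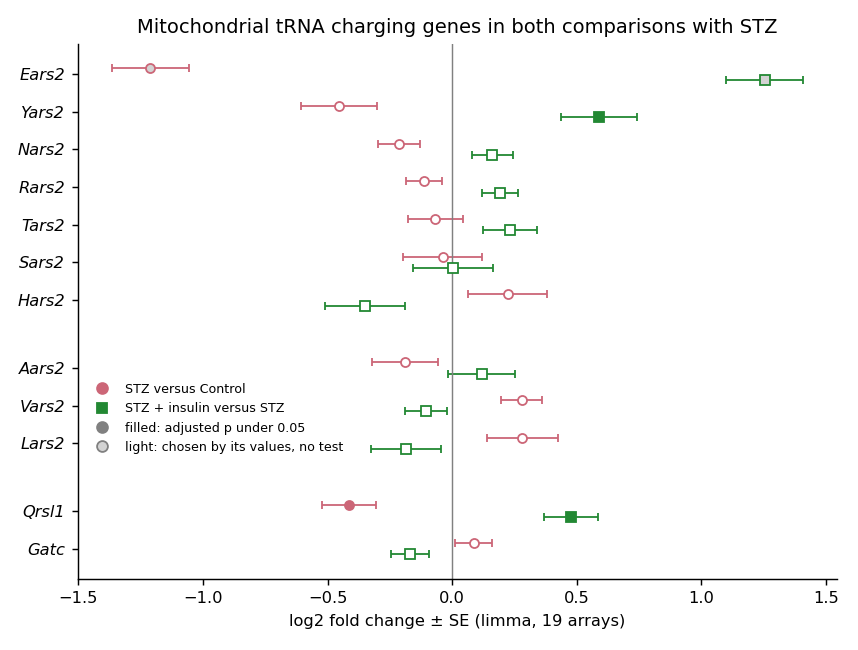
Log2 fold change (horizontal axis, ± standard error from limma) of the 12 tested genes of mitochondrial tRNA charging in STZ versus Control (circles) and STZ + insulin versus STZ (squares). The 5 diabetic arrays enter both comparisons, filled symbols passed the test, and light symbols mark Ears2, which was chosen by these values (-1.21 and 1.25).

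The amidotransferase genes went apart. Qrsl1, which encodes the catalytic subunit that completes the indirect glutamine route, fell in STZ and rose with insulin, whereas Gatc did not pass the test in either comparison (0.09 with adjusted p = 0.53, and -0.17 with adjusted p = 0.15). Qrsl1 signal was 423 to 539 (median 460.5) in Control, and 342, 271, 338, 415 and 407 in the 5 diabetic rats. It was 383 to 584 (median 494) in STZ + insulin. All diabetic arrays lay below all controls, as for 2.2% of tested probes, and the insulin-treated range overlapped both. The difference was -0.41 in STZ versus Control (standard error 0.11, adjusted p = 0.046) and 0.48 in STZ + insulin versus STZ (standard error 0.11, adjusted p = 0.013). The first call was near the threshold: it held in 5 of 19 fits that left out 1 array (those without Control replicate 4, STZ replicates 4 and 5, and STZ + insulin replicates 4 and 6), with an adjusted p of 0.033 to 0.13 over the 19. The second held in all 19 (0.0054 to 0.038). Its size differed between the slides, at 0.14 on BeadChip 1 alone and 0.77 on BeadChip 2 alone. The first difference was -0.27 and -0.50 there. With the lens level as a covariate the differences were -0.42 and 0.49 and neither was called (adjusted p = 0.089 and 0.21). Over all 35 alternatives the first call was lost in 25, quantile normalization, neqc and the replicate block among them, and the second in 5. The methods' t-test made neither when its p-values were Benjamini-Hochberg adjusted, which is not the paper's own rule. Gatb had no named probe.

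Over the 19 arrays the log2 signals of Qrsl1 and Ears2 had a Pearson correlation of 0.84, rank 16 among 7344 genes, and 0.59 after the group means were removed. For Yars2 the values were 0.67 and 0.18, for Rars2 0.61 and 0.33, for Hars2 -0.22 and 0.47, and for Gatc -0.62 and -0.56. These correlations are descriptions over arrays that share the group differences.

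**Figure D4:**
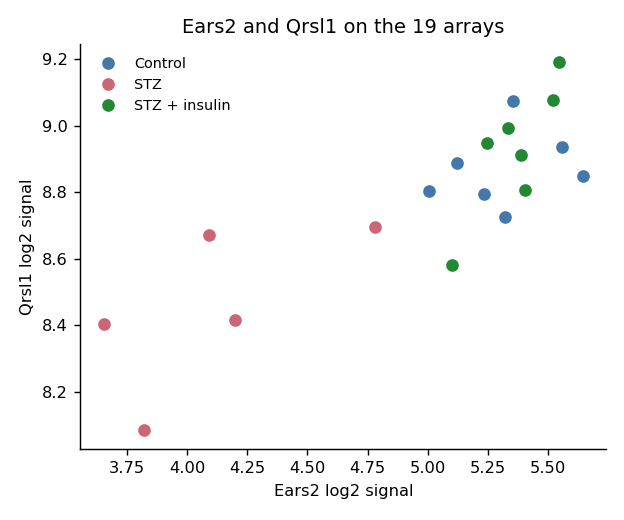
Log2 signal of Ears2 (horizontal axis) against that of Qrsl1 (vertical axis) on the 19 arrays, coloured by group. The STZ arrays lie at the lower left on both axes, with Ears2 between 3.66 and 4.78 and Qrsl1 between 8.08 and 8.70.

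Because Ears2 and Qrsl1 were both lower in every diabetic retina than in any control, their upstream sequences are shown from RefSeq (build GRCr8), up to the outermost start of each gene, 5′ to 3′ on the strand of the gene. Capitals mark the GC box (GGGCGG) and the CCAAT box (CCAAT), each on either strand.
Ears2, chr1:186057166-186057324, minus strand: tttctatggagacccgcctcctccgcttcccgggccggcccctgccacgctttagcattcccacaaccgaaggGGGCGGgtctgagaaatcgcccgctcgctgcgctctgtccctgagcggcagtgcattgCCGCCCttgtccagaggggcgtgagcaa
Qrsl1, chr20:48964813-48965062, minus strand: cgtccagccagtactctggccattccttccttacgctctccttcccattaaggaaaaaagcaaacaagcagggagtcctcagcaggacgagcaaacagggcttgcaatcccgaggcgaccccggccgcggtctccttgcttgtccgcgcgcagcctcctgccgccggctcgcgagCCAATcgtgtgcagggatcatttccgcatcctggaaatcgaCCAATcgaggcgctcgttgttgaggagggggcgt
The printed stretch was 159 bases for Ears2 and 250 for Qrsl1. It held 2 GC boxes for Ears2 and 2 CCAAT boxes for Qrsl1. Ears2 also had 1 CCAAT box in the longer stretch of 250 bases that is counted next. In the 250 bases before the tabulated start, a GC box was present in 4 of the 9 members and in 32.4% of 27457 promoters, and a CCAAT box in 4 of the 9 and in 34.3%. The amino acid response element through which ATF4 acts (TGATGNAA, either strand) was found in 0 of the 9 and in 3.27% of all promoters. An ETS site (CCGGAAG, either strand) was found in 4 of the 9, which were Hars2, Iars2, Rars2 and Sars2, and in 7.74%. A match is a match of letters only.

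The cytosolic and dual-compartment synthetases, with the scaffold proteins of their complex, were measured as the counterpart of the mitochondrial set. Of 24 listed genes 16 were tested. In STZ versus Control 2 of the 16 (12.5%) were lower, beside 1.9% of all tested probes, and 0 higher, with a median of -0.23 beside -0.07 for all tested probes. The 2 genes were Cars1, the cysteinyl enzyme (-0.46, standard error 0.12, adjusted p = 0.041), and Eef1e1, a scaffold protein of the multi-synthetase complex (-0.31, standard error 0.07, adjusted p = 0.036). With insulin 7 of the 16 (43.8%) were higher than in STZ, beside 6.49%, and 0 lower, with a median of 0.31 beside 0.06. When 1 array was left out, 2 to 8 of the 16 were higher. The median was then 0.24 (without STZ replicate 4) to 0.35. The methods' t-test, with Benjamini-Hochberg adjustment, called 1 of the 16 in each comparison. With the lens level as a covariate 2 probes in all were called with insulin. The 7 genes higher with insulin, in the fit without that covariate, were Cars1, Gars1, Iars1, Lars1, Nars1, Tars1 and Eef1e1. Cars1 was 0.54 higher with insulin (adjusted p = 0.011) and Iars1, the isoleucyl enzyme, 0.63 (adjusted p = 0.017). In STZ + insulin versus Control 0 of the 16 passed.

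Eef1e1 log2 signal was 9.55 to 9.83 in Control and 9.27 to 9.43 in STZ, so that these groups did not overlap, and 9.36 to 9.81 in STZ + insulin. Cars1 log2 signal was 8.71 to 9.13 in Control, 8.66, 8.45, 8.71, 7.92 and 8.77 in the 5 diabetic rats, and 8.84 to 9.17 in STZ + insulin. The lowest Cars1 value belonged to STZ replicate 4, the diabetic array with the highest Ears2 signal. Without that array the STZ versus Control difference was -0.32 for Cars1 (adjusted p = 0.065), -0.34 for Eef1e1 (adjusted p = 0.043) and -1.38 for Ears2. Both calls in STZ versus Control were near the threshold: that of Cars1 held in 8 of 19 fits that left out 1 array (adjusted p up to 0.095) and was lost in 20 of 35 alternatives, and that of Eef1e1 held in 12 of 19 (up to 0.077) and was lost in 14 of 35.

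Targets of ATF4, a transcription factor that raises amino acid supply and synthetase genes when amino acids are short, were listed as the pathway that acts on cytosolic synthetases. Of 26 genes 21 were tested. In STZ versus Control 4 of the 21 were lower, beside 1.9% of all tested probes, and 0 higher, with a median of -0.19 beside -0.07. With insulin 5 were higher than in STZ and 1 lower, beside 6.49% and 3.93%, with a median of 0.14 beside 0.06. The list did not move 1 way: its differences with insulin ran from -1.80 to 1.27. The methods' t-test, with Benjamini-Hochberg adjustment, called 0 of the 21 in the first comparison and 1 in the second. Gdf15, a secreted stress cytokine, had a log2 difference of -0.80 (standard error 0.16, adjusted p = 0.018). Its log2 signal was 8.28 to 8.71 in Control and 7.12 to 8.20 in STZ, without overlap, and 8.03 to 8.71 in STZ + insulin. Chac1, which degrades glutathione, changed by -1.32 (standard error 0.33, adjusted p = 0.040), and Atf3, a stress-induced transcription factor, by -1.31 (standard error 0.33, adjusted p = 0.040). Slc7a1, a cationic amino acid transporter, changed by -0.90 (standard error 0.23, adjusted p = 0.043). STZ replicate 4 had the lowest signal of all arrays for Gdf15, Chac1, Atf3 and Slc7a1. Without it the differences were -0.66 (adjusted p = 0.043), -0.91 (0.061), -0.95 (0.077) and -0.69 (0.091) in that order. The calls were lost in 6, 17, 18 and 22 of 35 alternatives in the same order, and held in 19, 10, 10 and 8 of 19 fits that left out 1 array. Atf4 itself had a difference of -0.04 (adjusted p = 0.85).

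**Figure D5:**
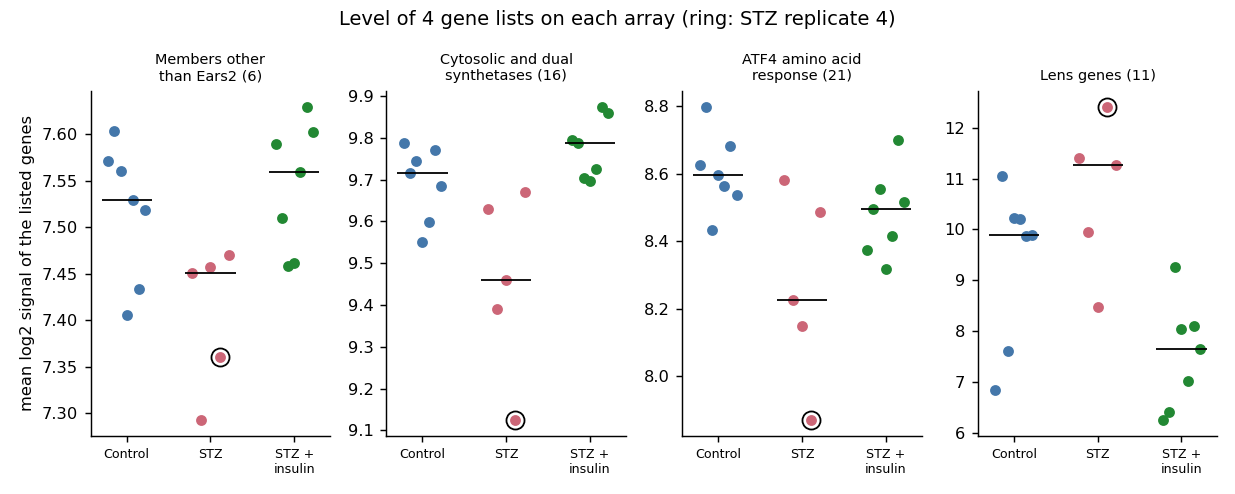
Mean log2 signal (vertical axis) of the tested genes of 4 lists on each array, by group, with the group median as a line and a ring on STZ replicate 4; the number of genes is in parentheses. STZ replicate 4 had the lowest level of the cytosolic synthetases (9.12) and the highest level of lens genes (12.41).

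Other genes that serve mitochondrial tRNAs and translation gave 0 calls in STZ versus Control and some in STZ + insulin versus STZ. For tRNA processing and modification 0 of 12 tested genes passed in STZ versus Control and 2 of 12 (16.7%) were higher with insulin, beside 6.49% of all tested probes. Among them Mto1, which modifies the wobble base of several mitochondrial tRNAs including that for glutamate, was 0.55 higher with insulin than in STZ (adjusted p = 0.015), after -0.45 in STZ versus Control (adjusted p = 0.061). The Mto1 difference with insulin was 0.18 on BeadChip 1 alone and 0.88 on BeadChip 2 alone. For translation factors 0 of 5 and 1 of 5 (20%) passed, the latter being Mtrf1l, a peptide chain release factor (0.25, adjusted p = 0.032). For mitochondrial mass and genome expression 0 of 21 and 3 of 21 (14.3%) passed. The difference between the 2 comparisons was not tested. Mterf1, a termination factor of mitochondrial transcription, had -0.28 (adjusted p = 0.093) and then 0.33 (adjusted p = 0.030), and Polg, the mitochondrial DNA polymerase, had -0.22 (adjusted p = 0.22) and 0.38 (adjusted p = 0.023). The other genes chosen by p had these mean log2 signals in Control, STZ and STZ + insulin. Those of tRNA modification were Pus1 (5.47, 5.10 and 5.31), Trmt5 (8.46, 8.26 and 8.53) and Yrdc (6.38, 6.26 and 6.35). Those of translation were Mtif2 (8.83, 8.61 and 8.95), Mrrf (7.48, 7.38 and 7.45) and Guf1 (9.55, 9.31 and 9.70). Those of mass and genome expression were Ppargc1a (8.22, 7.84 and 8.15) and Tfb2m (9.20, 8.90 and 9.14). Of the mitochondrial enzymes of glutamate metabolism 3 of 8 were tested and 0 passed in either comparison: Got2, Glud1 and Ogdh had differences of 0.12, 0.11 and 0.00 in STZ versus Control.

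The genes most like Ears2 over the 19 arrays were Omg, a myelin glycoprotein (Pearson 0.90), Mre11, a nuclease of DNA break repair (0.89), Xpo4, a nuclear export receptor (0.89), Med6, a subunit of Mediator (0.88), and Tyms, thymidylate synthase (0.87), among 7344 genes compared. The most opposite were Jup and Tead3 (both -0.89) and Tubb2b (-0.88). After removal of group means these values fell to 0.37 to 0.75 in the first 5 genes and -0.39 to -0.61 in the other 3.

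Lens genes varied strongly between the retinas and with the groups. All 11 listed lens genes with a probe, of 20, were tested, and their mean log2 signal was 6.85 to 11.06 in Control, 8.48 to 12.41 in STZ and 6.26 to 9.26 in STZ + insulin. Cryba2, the brightest, ran from 8.68 to 14.56. In STZ + insulin versus STZ 10 of the 11 were lower, beside 3.93% of all tested probes. With this level as a covariate, chosen after the values had been seen, 2 probes were called in STZ + insulin versus STZ and 120 in STZ versus Control. The Ears2 differences were then -1.30 (standard error 0.16) in STZ versus Control and 1.47 (standard error 0.21) in STZ + insulin versus STZ. Without the covariate they were -1.21 and 1.25. The order of the 5 diabetic arrays by lens level (replicates 3, 2, 5, 1 and 4, from 8.48 to 12.41) was also their order by Ears2 signal (12.6, 14.1, 17.1, 18.3 and 27.5). No such order held in Control or in STZ + insulin. In Control the lowest and highest lens levels (replicates 1 and 2) went with Ears2 signals of 47.1 and 49.99. In STZ + insulin the lowest and highest (replicates 1 and 3) went with 42.4 and 41.8. Pigment epithelium genes (4 of 8 tested) had a mean log2 signal of 6.34 to 8.47 in Control, 5.77 to 7.91 in STZ and 5.27 to 7.82 in STZ + insulin, with Ttr the brightest. Microglia and leukocyte genes (3 of 9 tested, Aif1 the brightest, Ptprc not detected) had 6.38 to 6.97, 6.52 to 8.56 and 6.50 to 7.88. The levels of Muller glia (5 of 8 tested, Apoe the brightest) were 10.79 to 11.17, 10.75 to 11.17 and 10.64 to 10.86. Retinal neurons other than photoreceptors (10 of 13 tested, Gad1 the brightest) had 9.52 to 9.70, 9.35 to 9.52 and 9.41 to 9.65. Endothelium and blood (3 of 8 tested, Hbb the brightest) had 9.03 to 9.69, 8.89 to 9.75 and 8.96 to 9.82. The part of lens, pigment epithelium, microglia and the other cell types in the values of the members was not tested.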

How the data were processed

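RNA from 19 rat retinas was labelled and hybridised to Illumina RatRef-12 arrays, 1 per rat. The authors subtracted background and scaled each array to a common mean in GenomeStudio (version 1.0.6 in the submitters' processing notes) and deposited these intensities beside the non-normalized intensities and a detection p-value for every probe. The authors removed arrays of poor quality from the diabetic and insulin-treated groups. 1 control array of the study was not analysed here. Probes were named by the platform annotation, 13259 of 22517 with a symbol, and for a gene with several probes the brightest was taken. On the log2 scale, with intensities under 10 set to 10, the 3 groups were fitted in 1 model with limma 3.58.1 in R 4.3.3 with Benjamini-Hochberg adjustment of the p-values over 10718 probes. The fit was tested on simulated data. Figures were drawn with matplotlib 3.10.9 from tables handled in pandas 2.3.3.

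The members and the 16 gene lists were chosen with earlier results of these data known. Named were all members, all genes of the other mitochondrial synthetase and amidotransferase lists, up to 4 genes per further list by smallest p in STZ versus Control, the brightest gene of each cell type list and the 5 most and 3 least correlated genes. Gars1, Lars1, Nars1 and Atf4 were named after their values were seen. Also tried were quantile normalization, neqc (its offset set to 16), non-normalized signals centred by array, a floor of 1 or 50, a stricter detection p (0.01), all probes, fits of just 2 groups, blocks for replicate number or BeadChip, the methods' t-test with equal and with unequal variances, each BeadChip alone, the mean of a gene's probes, each array left out in turn, and the lens level as a covariate (a choice made after seeing the data). Both forms of the t-test were Benjamini-Hochberg adjusted here and had no fold cutoff. The paper's own rule was a t-test p under 0.05, with no adjustment stated, together with a fold cutoff. That rule was not applied here. The limma p-values set each group difference against the spread between rats, moderated over all probes. The precision is limited by the number of arrays.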

Additional observations from a re-analysis of the deposited data

Results flagged for a closer look

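In 36 groups of arrays, 3 for each of the 12 tested genes of mitochondrial tRNA charging, 2 held an array that lay farther from the others than Dixon's 95% limit allows, which chance does for about 1 group in 20. Rars2 had a log2 signal of 8.18 on Control replicate 5, where the other controls had 8.33 to 8.40. Vars2 had 6.96 on STZ + insulin replicate 3, where the other insulin-treated arrays had 7.15 to 7.21. The former array lay on BeadChip 2 and the latter on BeadChip 1.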

How the results depend on the processing

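Ears2 kept its direction in both comparisons with STZ wherever it had a value above the floor. Ears2 in STZ versus Control was -0.59 with neqc, -0.36 with non-normalized signals and 0 with a floor of 50, and in STZ + insulin versus STZ 0.67, 0.41 and 0 in that order and 0.87 on BeadChip 1 alone. Leaving out 1 array gave -1.38 to -1.10 and 1.14 to 1.42. In STZ + insulin versus Control, Ears2 was -0.21 and Yars2 -0.070 on BeadChip 1 alone. Ears2 was -0.010 to 0.096 there when 1 array was left out. The Yars2 call in STZ + insulin versus STZ was lost at 0.59 without a filter (adjusted p = 0.056), with the methods' t-test (0.11), with unequal variances (0.16) and with only the 2 groups (0.067). It was also lost at 0.49 with the replicate block (0.052), at 0.32 and 0.89 on BeadChips 1 and 2 alone (0.40 and 0.052) and at 0.56 with the lens covariate (0.29). It was 0.45 to 0.68 with 1 array left out (0.0081 to 0.065).

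Calls in STZ versus Control numbered 107 without a filter, 147 with non-normalized signals, 154 and 23 with equal and unequal variances, 102 with only the 2 groups, 80 with the replicate block, 9 and 0 on BeadChips 1 and 2, and 120 with the lens covariate. They numbered 99 to 393 with 1 array left out, lowest without Control replicate 1 (99), replicate 7 (104), replicate 3 (109), replicate 5 (126), replicate 2 (130) and replicate 6 (178), STZ replicate 2 (111), STZ replicate 4 (171) and STZ + insulin replicate 2 (172). Calls in STZ + insulin versus STZ numbered 595, 347, 66, 584, 482, 8, 355 and 2 under no filter, both variance assumptions, 2 groups, the replicate block, each BeadChip and the lens covariate. They numbered 542 to 1494 with 1 array left out, and were below 1117 by over 1.5 times without STZ replicates 2 (542) and 4 (671) and STZ + insulin replicates 2 (739), 5 (712), 6 (717) and 7 (704). In STZ + insulin versus Control there were 2 with quantile normalization, 3 with neqc, 4 on BeadChip 2 and 1 to 17 with 1 array left out, and 0 with a floor of 50, a stricter or no filter, non-normalized signals, either t-test, the replicate block, BeadChip 1 or the lens covariate. Replicate numbers gave no clear sign of pairing. Deviations of same-numbered arrays from the group means correlated at -0.21 to 0.27 in STZ versus Control, where 0 of 5 matched best with their own number. The range was -0.13 to 0.072 in STZ + insulin versus STZ (1 of 5 matched) and -0.24 to 0.21 in STZ + insulin versus Control (1 of 7 matched).

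Sars2, near 0 in the fit of all arrays, turned sign in STZ versus Control at 0.020 with quantile normalization, 0.019 with neqc, 0.26 on BeadChip 2 and 0.14 with the lens covariate. In STZ + insulin versus STZ it was -0.0084, -0.0078, -0.032 and -0.42, and against Control 0.011, 0.011 and 0.23 in the first 3 of these settings and 0.011 with non-normalized signals. With 1 array left out it was -0.13 to 0.089, -0.13 to 0.095 and -0.10 to 0.041 in the 3 comparisons. On BeadChip 1 Aars2 was -0.047 in STZ + insulin versus STZ and Qrsl1 -0.13 in STZ + insulin versus Control, and on BeadChip 2 Lars2 was 0.057 in STZ + insulin versus STZ. Over 48 differences of named genes and 1678 refits, 1435 kept direction and side of the threshold, 199 lost the call, 13 gained it and 31 turned sign, 25 of these for Sars2. The 48 include the Ears2 difference of STZ + insulin versus Control, which is given as a description. The causes were not tested. The fold size of Ears2, whose probe was near background, differed between the ways of processing.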
